A study of Mus musculus with 6 samples.

Results

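The cytosolic ribosomal protein genes were examined in liver RNA from mice with sickle cell disease. They were taken by symbol: a name of the form Rpl or Rps followed by a number, with at most a closing a, l or x, together with Rplp0, Rplp1, Rplp2 and Rpsa. This gave 81 of the 24421 genes in the count tables. The symbol rule itself used no measured value, although the family was chosen with earlier results of these data known. All mice were of the Townes line at 7 months of age, and all carried Hbatm1(HBA)Tow, in which human alpha-globin stands in place of the mouse gene. The 3 SS libraries came from mice whose beta-globin allele was Hbbtm2(HBG1,HBB*)Tow alone, the human sickle allele. The 3 AS libraries, the controls, came from mice with that allele and Hbbtm3(HBG1,HBB)Tow, which carries normal human beta-globin. The RNA was total RNA of liver tissue, so every value below is a mixture over all liver cells. The labels do not say whether replicates were separate animals, and p-values therefore rest on the spread among these libraries, which may be technical.

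The cytosolic ribosome has a small subunit, which decodes the mRNA, and a large subunit, which joins the amino acids. Each subunit is built on ribosomal RNA, and nearly all of its proteins are present in a single copy, so their mRNAs are made in similar amounts. In mammals these mRNAs begin with a C followed by a stretch of pyrimidines, the 5′ terminal oligopyrimidine (TOP) tract, through which mTORC1 and the RNA-binding protein Larp1 control their translation together. Mutations in several of the genes cause Diamond-Blackfan anaemia in humans, a failure of red cell production. The genes have also left many processed pseudogenes, intron-less copies of their mRNAs, which complicates the counting of their reads.

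The start sites of a few members are shown because the TOP tract is the best-known feature that these mRNAs share. Each line gives 10 bases before and 20 bases from the gene's annotated start in RefSeq on GRCm38.p6, 5′ to 3′, with the pyrimidine run that begins at the start in capitals. The windows were chr14:18270967-18270996 on the minus strand for Rpl15, chr2:39005112-39005141 on the minus strand for Rpl35, chr17:27635225-27635254 on the minus strand for Rps10, chr4:86857348-86857377 on the minus strand for Rps6, chr3:90213629-90213658 on the minus strand for Rps27, and chr7:141447641-141447670 on the plus strand for Rplp2. The last line, Rps27l at chr9:66946076-66946105 on the plus strand, has no such run.
Rpl15: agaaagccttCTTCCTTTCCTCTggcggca
Rpl35: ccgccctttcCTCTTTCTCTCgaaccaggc
Rps10: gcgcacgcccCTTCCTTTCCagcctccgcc
Rps6: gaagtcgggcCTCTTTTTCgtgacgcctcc
Rps27: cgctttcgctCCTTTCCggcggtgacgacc
Rplp2: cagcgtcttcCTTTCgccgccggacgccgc
Rps27l: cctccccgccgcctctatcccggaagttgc

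Of the 81 members, 60 had an entry in the RefSeq promoter table. A C at the annotated start followed by at least 4 more C or T bases, on the gene's own strand, stood in 13 of these 60 genes (21.7%). It stood in 289 of the 9653 tested genes with an entry (2.99%) and in 0 of 68 mitochondrial ribosomal protein genes, whose products build a separate ribosome. When the run could begin up to 5 bases on either side of the annotated start, the shares were 46.7% of the members, 25% of the mitochondrial set and 23.9% of all tested genes. An annotated start that lies a few bases off can hide a run at the true start, so a member without one in this window is not shown to lack it.

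Together the members held between 1.85% and 3.55% of gene reads in each library. The share was 3.14%, 3.55% and 1.85% in SS replicates 1, 2 and 3, against 3.29%, 2.63% and 2.49% in AS replicates 1, 2 and 3. The lowest and the highest of the 6 libraries were thus both SS, and the groups overlapped. The means were 2.85 ± 0.888% in SS and 2.80 ± 0.428% in AS (SD, n = 3 each), a difference of 0.0462 percentage points. With single libraries left out the difference ran from -0.305 without SS replicate 2 to 0.545 without SS replicate 3, and it was negative without AS replicate 2, AS replicate 3, SS replicate 1 or SS replicate 2. Counting error was small beside this spread, since the widest 95% Wilson interval of a share spanned 0.0259 percentage points. Gene reads per library ran from 6971289 to 13700194 in SS and from 6670011 to 12658869 in AS.

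The subunits moved together. Large subunit genes took 1.44 ± 0.467% of gene reads in SS and 1.44 ± 0.249% in AS, and small subunit genes took 1.19 ± 0.358% in SS and 1.17 ± 0.151% in AS (SD, n = 3 each). The ratio of large to small subunit counts was 1.24, 1.21 and 1.15 in SS replicates 1 to 3, against 1.29, 1.20 and 1.20 in AS replicates 1 to 3. It varied far less between libraries than the share itself, which ranged 1.92-fold. For comparisons of single genes the counts were scaled by edgeR's trimmed-mean (TMM) factors and given as CPM, that is counts scaled to a common library size. On that scale the summed level of the members was 28919, 35285 and 15337 CPM in SS replicates 1 to 3, against 39501, 28256 and 25751 CPM in AS replicates 1 to 3. The order of AS replicate 1 and SS replicate 2 is exchanged between these scales, because the TMM factors were higher in SS (1.09, 1.01 and 1.21) than in AS (0.834, 0.931 and 0.967).

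**Figure D1:**
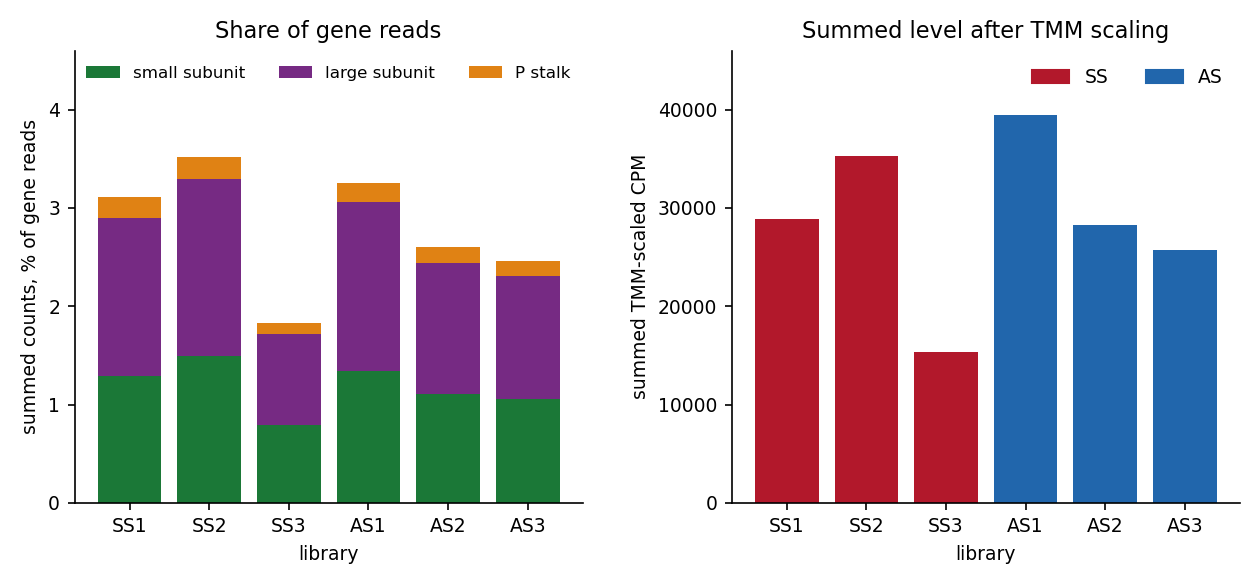
Ribosomal protein reads in each library (SS1 to SS3 are SS replicates 1 to 3, AS1 to AS3 are AS replicates 1 to 3). Left, summed counts as a percentage of gene reads, stacked by part of the ribosome without the 5 paralogs; right, the summed TMM-scaled CPM. SS replicate 3 is the lowest library on both scales, at 1.85% and 15337 CPM.

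No ribosomal protein gene passed the test between SS and AS. Of the members, 76 had enough reads to be tested among 12622 genes with edgeR's quasi-likelihood test, and 0 were called at a Benjamini-Hochberg adjusted p under 0.05. Over all genes tested, 0.967% were called, 115 of them higher in SS (0.911%) and 7 lower in SS (0.0555%). At an unadjusted p under 0.05 the members again numbered 0, against 12.7% of all genes, and DESeq2 and limma-voom each called 0 members. The lowest adjusted p among members was 0.484. Counts were also simulated from these libraries, with changes given to genes drawn at random from all those tested. Of the genes given a 2-fold change 8.2% were called, and of those given a 4-fold change 68.2%. These rates cover genes of all levels, each drawn independently, and are not rates for the members. The absence of calls does not show that the members were unchanged.

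The fitted values nevertheless leaned one way. Of the 76 tested members, 70 had a lower fitted value in SS, against 43.7% of all genes tested, and the members' median log2 fold change was -0.24 where that of all genes was 0.08. The median was -0.26 for 41 large subunit genes, -0.23 for 30 small subunit genes and -0.12 for the 3 stalk genes. All 76 of the 95% intervals included 0. Without scaling factors all genes shifted alike, to a median of 0.016 for the members and 0.36 for all genes, so that the members minus all genes stood at -0.35, against -0.33 with the factors. The lean did depend on which libraries entered. The members' median was 0.016 without SS replicate 3, where that of all genes was 0.019, and -0.04 without AS replicate 1, where that of all genes was 0.09. When SS replicate 3 and AS replicate 1 were dropped together it was 0.24, where that of all genes was 0.04, and then 9 of 74 tested members had a lower fitted value in SS. The members vary together across libraries, so they are not independent measurements of the difference.

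**Figure D2:**
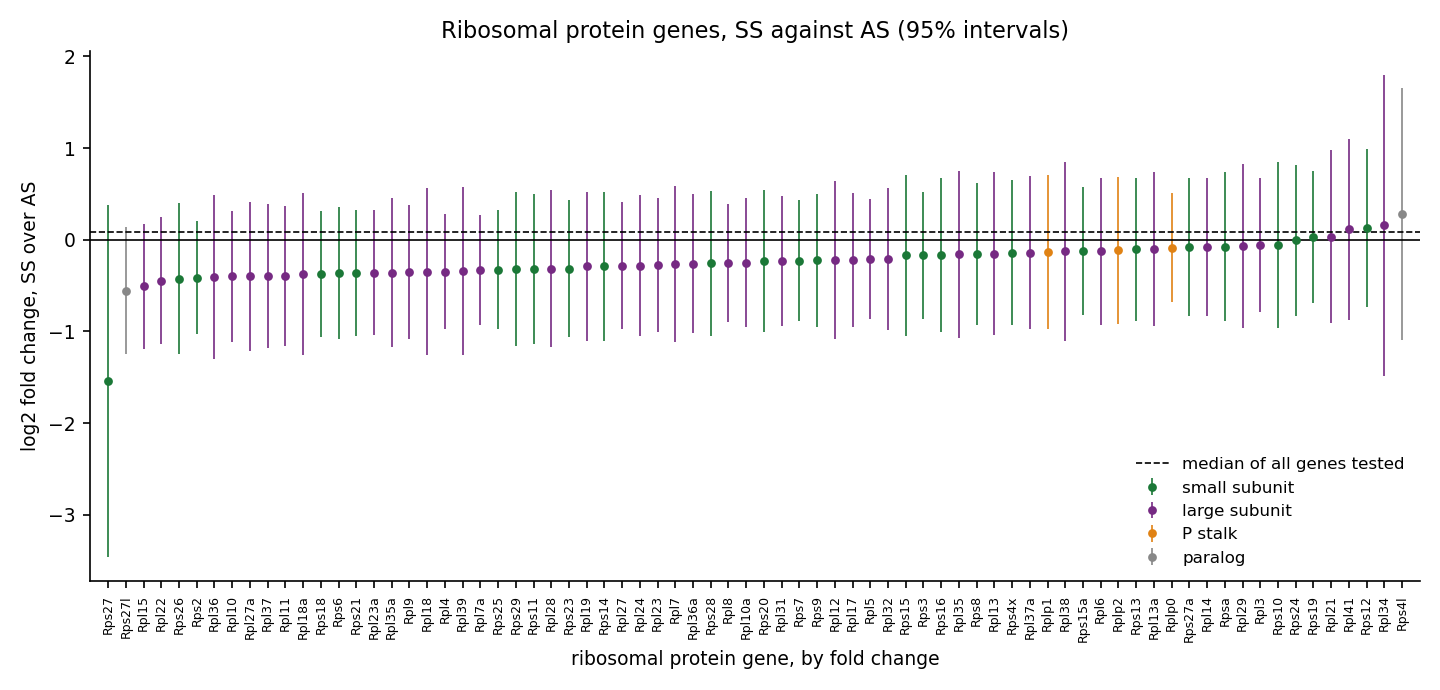
Log2 fold change, SS over AS, of 74 of the tested ribosomal protein genes with 95% intervals, ordered by value and coloured by part of the ribosome; the dashed line is the median of all genes tested (0.08). Every interval drawn includes 0, and most points lie below it.

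Of the 3 stalk genes, Rplp1 stood highest in level per transcript length, and Rplp0 lay below the median of the tested members (302 against 492 CPM per kb). Rplp1, Rplp2 and Rplp0 form the stalk of the large subunit, which recruits elongation factors. Rplp1 had the highest level per transcript length of all members, with a mean of 2108 CPM per kb over the 6 libraries. Its level was 1124, 1390.2 and 493 CPM in SS replicates 1 to 3, against 1395, 1009 and 899 CPM in AS replicates 1 to 3. SS replicate 3 was the lowest library, the other SS libraries lay within the AS range, and the log2 fold change was -0.13 (SE 0.377, edgeR adjusted p = 0.901). Rplp2 had 388, 428 and 165 CPM in SS replicates 1 to 3, against 440.4, 329 and 292 CPM in AS replicates 1 to 3. Its groups overlapped in the same way, with a log2 fold change of -0.12 (SE 0.361, edgeR adjusted p = 0.912). Rplp0, often used as a reference gene, stood at 459, 403 and 333 CPM in SS replicates 1 to 3 and at 523, 394 and 349 CPM in AS replicates 1 to 3. It showed the smallest standard error of the tested members and a log2 fold change of -0.09 (SE 0.270, edgeR adjusted p = 0.914). The 3 stalk values turned positive without AS replicate 1 or without SS replicate 3. Without scaling factors they were positive too, but below the median of all genes on that scale.

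Rpl41, Rps29 and Rps18 were also among the members of highest level per length, at 1415, 1118 and 998 CPM per kb. Rpl41 encodes a peptide of a few basic residues, the shortest ribosomal protein. It had 730.4, 904 and 294 CPM in SS replicates 1 to 3, against 935, 458 and 390.1 CPM in AS replicates 1 to 3. SS replicate 3 was the lowest and AS replicate 1 the highest library, and the groups overlapped. Its log2 fold change was 0.11 (SE 0.446, edgeR adjusted p = 0.933). Rps29, a zinc-binding small subunit protein, had a log2 fold change of -0.32 (SE 0.381), and Rps18, which lies in the head of the small subunit, one of -0.37 (SE 0.313). Rpsa, also known as the laminin receptor, had 785, 912 and 342 CPM in SS replicates 1 to 3, against 898, 632 and 619.6 CPM in AS replicates 1 to 3. The log2 fold change of Rpsa was -0.08 (SE 0.366, edgeR adjusted p = 0.947), and it too turned positive without AS replicate 1 or without SS replicate 3, and without scaling factors was positive but below the median of all genes.

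The lowest fold changes among well-counted members were those of Rps27l and Rpl15. Rps27l, the paralog of Rps27 and a known target of p53, had 236, 264 and 131 CPM in SS replicates 1 to 3, against 377, 277 and 272 CPM in AS replicates 1 to 3. It was the only tested member whose groups did not overlap: all 3 SS libraries lay below all 3 AS libraries, by a narrow margin between SS replicate 2 and AS replicate 3. Such a separation, with SS lower, held for 9.04% of all genes tested, and one with SS higher held for 12.1% of all genes and for 0 members. The log2 fold change of Rps27l was -0.56 (SE 0.312, edgeR adjusted p = 0.484). Rpl15, a core protein of the large subunit, had 160.2, 240.4 and 160.4 CPM in SS replicates 1 to 3, against 369.6, 212 and 217 CPM in AS replicates 1 to 3. SS replicate 2 lay among the AS libraries, and the log2 fold change was -0.51 (SE 0.309, edgeR adjusted p = 0.511). Rpl15 kept a negative value under every alternative tried.

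Rpl22, an RNA-binding protein of the large subunit, and Rps26 and Rps2, which line the path of the mRNA on the small subunit, came next. Rpl22 had 179, 238 and 111 CPM in SS replicates 1 to 3, against 292, 214 and 214 CPM in AS replicates 1 to 3, a log2 fold change of -0.45 (SE 0.314, edgeR adjusted p = 0.574). Rps26 had 241, 304 and 106 CPM in SS replicates 1 to 3, against 372, 255 and 248 CPM in AS replicates 1 to 3, a log2 fold change of -0.42 (SE 0.374, edgeR adjusted p = 0.655). In both genes SS replicate 2 exceeded 2 of the AS libraries. Rps2 had 618, 944 and 600.3 CPM in SS replicates 1 to 3, against 1074, 896 and 916 CPM in AS replicates 1 to 3, with a log2 fold change of -0.42 (SE 0.278, edgeR adjusted p = 0.551). For Rps2, SS replicates 1 and 3 were similarly low and SS replicate 2 lay within the AS range.

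At the other end stood 6 members with a positive fitted value. Rps19, the gene most often mutated in Diamond-Blackfan anaemia, had 334, 444 and 197 CPM in SS replicates 1 to 3, against 379.8, 309 and 266 CPM in AS replicates 1 to 3. SS replicate 2 was its highest library and SS replicate 3 its lowest, and the log2 fold change was 0.03 (SE 0.324, edgeR adjusted p = 0.979). Rps12, a small subunit protein, had 296, 308 and 101 CPM in SS replicates 1 to 3, against 259, 198 and 189.7 CPM in AS replicates 1 to 3. Here SS replicates 1 and 2 lay above every AS library and SS replicate 3 below them, with a log2 fold change of 0.12 (SE 0.389, edgeR adjusted p = 0.913). Rpl21, a large subunit protein, showed the same order, with 151, 134 and 36.8 CPM in SS replicates 1 to 3, against 114, 101 and 99.6 CPM in AS replicates 1 to 3 (log2 fold change 0.03, SE 0.426, edgeR adjusted p = 0.985). Rps4l, annotated in GENCODE as a transcribed processed pseudogene, was low, at 26.1, 22.6 and 4.30 CPM in SS replicates 1 to 3, against 25.6, 10.1 and 7.85 CPM in AS replicates 1 to 3. Its log2 fold change was 0.28 (SE 0.619, edgeR adjusted p = 0.871). The remaining positive values were those of Rpl41 and of Rpl34, which was nearly uncounted. The value of each of these 6 turned negative under at least 1 of the alternatives.

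Leaving out SS replicate 3 together with AS replicate 1 leaves 2 libraries a group, and edgeR then called 4 of 74 tested members, all higher in SS. Over the 12716 genes tested in these libraries 5.21% were called, and 2.72% were called higher in SS. The 4 members were Rpl41 (log2 fold change 0.95, edgeR adjusted p = 0.0141), Rps4l (1.45, edgeR adjusted p = 0.0202), Rps10 (0.68, edgeR adjusted p = 0.0332) and Rps12 (0.64, edgeR adjusted p = 0.0382). Rps10, a protein at the mRNA entry side of the small subunit, had 276, 269 and 103 CPM in SS replicates 1 to 3, against 334, 172 and 168 CPM in AS replicates 1 to 3. In each of the 4 genes AS replicate 1 lay above the other AS libraries and SS replicate 3 below the other SS libraries. This pair of libraries was left out because earlier results showed that they stand apart, so these calls are a description of the remaining 4 libraries.

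The members shared an order of libraries that cut across the genotypes. SS replicate 3 was the lowest of the 6 libraries for 72 of the 76 tested members. AS replicate 1 was the highest for 58 of them and SS replicate 2 for 15. Over the 72 members above 10 CPM other than the paralogs, the median departure from a gene's own mean over the 6 libraries, in log2 CPM, was 0.08, 0.36 and -0.94 in SS replicates 1 to 3, against 0.48, 0.05 and -0.10 in AS replicates 1 to 3. All 72 lay below their mean in SS replicate 3 and all 72 lay above it in AS replicate 1. The median correlation between pairs of these members over the 6 libraries was 0.94, and 86.7% of the 2556 pairs exceeded 0.8, with depth and scaling shared by all pairs. AS replicates 2 and 3 were the most alike, with a chi-square of 7.30 per gene between their counts over the 74 members above 10 CPM, against 29.9 to 98.0 for the other pairs within a group. The value of the closest pair is still above sampling noise, and both libraries were kept.

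Short transcripts of other genes also lay low in SS replicate 3 and high in AS replicate 1. Among protein-coding genes outside the family, the median departure in SS replicate 3 was -0.94 for transcripts of up to 600 bases, -0.65 from 600 to 1000 bases, -0.31 from 1000 to 2000 bases, 0.11 from 2000 to 4000 bases and 0.47 above 4000 bases. In AS replicate 1 the same classes stood at 0.42, 0.32, 0.16, -0.06 and -0.25, an opposite and weaker gradient. The members' transcripts are short, with a median of 740 bases for those tested, which falls in the class from 600 to 1000 bases. The 273 other protein-coding genes of up to 981 bases and above 50 CPM had a median departure of -0.02, 0.15 and -0.93 in SS replicates 1 to 3, against 0.47, 0.21 and 0.06 in AS replicates 1 to 3. They stood close to the members in SS replicate 3 and AS replicate 1, below them in SS replicates 1 and 2, and above them in AS replicates 2 and 3. Their median log2 fold change was -0.44, with 243 lower in SS by fitted value and 5 called higher and 1 called lower. The members' median of -0.24 was therefore no lower than that of other short, abundant transcripts. Whether RNA quality or library preparation had a part in this dependence on length was not tested, and in whole tissue a smaller share of a cell type and less RNA per cell cannot be told apart.

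**Figure D3:**
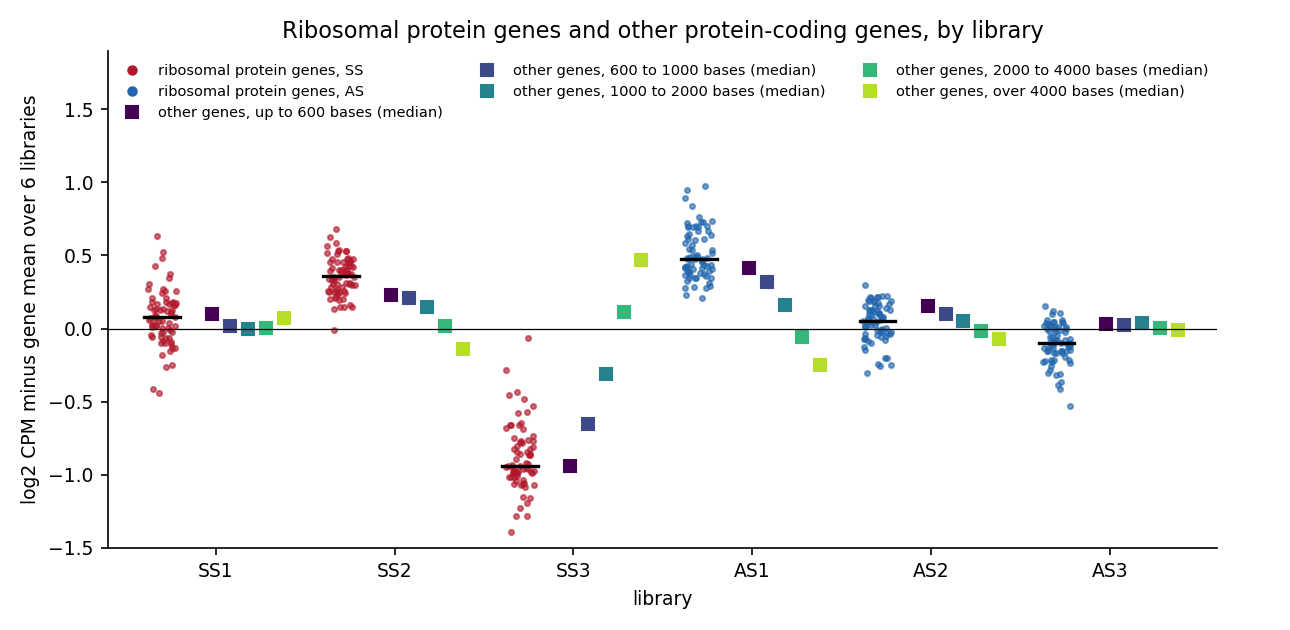
Departure of each gene's log2 CPM from its mean over the 6 libraries. Dots are the 72 ribosomal protein genes above 10 CPM, black lines their medians, and squares the medians of other protein-coding genes in 5 classes of transcript length. In SS replicate 3 (SS3) the ribosomal protein median (-0.94) coincides with that of other genes of up to 600 bases (-0.94), the class from 600 to 1000 bases stands at -0.65 and the longest class stands at 0.47.

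A few members followed the library pattern less closely. The mean correlation with the other members was 0.48 for Rps3, 0.70 for Rpl15, 0.71 for Rps2 and 0.75 for Rplp0, over the 6 libraries. Rps3, a small subunit protein at the mRNA entry that also acts in DNA repair, had 342, 449 and 388 CPM in SS replicates 1 to 3, against 645, 342 and 339 CPM in AS replicates 1 to 3. It was not low in SS replicate 3, and AS replicate 1 was its highest library (log2 fold change -0.17, SE 0.313, edgeR adjusted p = 0.844).

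The members were also set against their summed counts, which removes their summed level in each library but not differences between members. On that scale 6 of the 76 tested members did not overlap with SS lower: Rpl11, Rpl22, Rpl27a, Rpl37, Rps26 and Rps27l. Another 2 of the 76 did not overlap with SS higher, Rpl14 and Rps19. For all tested genes, divided by the same sum, the shares without overlap were 2.31% with SS lower and 12.1% with SS higher. Most of these genes lie outside the family, and the division puts the variation of that sum between libraries into their values. These shares are therefore not a like background for the members. Rps27l made up 0.815%, 0.747% and 0.852% of ribosomal protein counts in SS replicates 1 to 3, against 0.954%, 0.981% and 1.06% in AS replicates 1 to 3. All SS libraries lay below all AS libraries, now with SS replicate 3 as the highest of the SS values. Rps19 made up 1.15%, 1.26% and 1.29% in SS replicates 1 to 3, against 0.962%, 1.09% and 1.03% in AS replicates 1 to 3. Its share was higher in every SS library, and the ratio of the means was 0.26 on the log2 scale. Rpl11, which binds Mdm2 when it is free of the ribosome, made up 1.47%, 1.42% and 1.41% in SS replicates 1 to 3, against 1.62%, 1.55% and 1.64% in AS replicates 1 to 3. With 3 libraries a group an exact permutation test cannot go below p = 0.1, so these orders are descriptions.

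The counting of this family is affected by its copies. Each member's coding sequence was cut into windows of 50 bases and matched exactly against all other annotated GENCODE M21 transcripts on the same mouse build. Of the 76 members other than the 5 paralogs, 75 had at least 1 window with a copy elsewhere and 29 had every window copied. For 19 the whole coding sequence stood in another transcript. The median member had 91.4% of its windows copied at 50 bases, 84.3% at 75 bases and 72.9% at 100 bases. In all there were 1125 pairs of a member and a copy, of which 1077 involved an annotated pseudogene. The read length is not in the labels, so the length that applies here is unknown, and copies outside the annotation were not searched.

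High counts were also found among members with many copies, although a level does not show what share of a gene's reads was assigned to it. Of the 29 with every window copied, 28 exceeded 100 CPM, and so did 18 of the 19 with a whole coding copy. Among the 72 members above 10 CPM, the rank correlation between the copied share and the level per length was -0.095, and that with the log2 fold change was -0.067, as descriptions across genes. The median log2 fold change was -0.27 for the 28 members with every window copied and -0.23 for the 11 with under 50% copied. Rpl17, Rpl23a and Rpl31, large subunit proteins around the exit of the peptide tunnel, had all their windows copied, with 51, 28 and 25 copy genes. Rpl17 had 389, 524 and 223 CPM in SS replicates 1 to 3, against 522, 414 and 389.7 CPM in AS replicates 1 to 3, and a log2 fold change of -0.22 (SE 0.328, edgeR adjusted p = 0.798). Its groups overlapped, as did those of Rpl23a (log2 fold change -0.36, SE 0.309), Rpl31 (log2 fold change -0.23, SE 0.320) and Rpl27a, a further large subunit protein with every window copied (log2 fold change -0.40, SE 0.365). Reads with several alignments made up 14.7%, 15.3% and 16.2% of records in SS replicates 1 to 3, against 22.8%, 18.4% and 19.02% in AS replicates 1 to 3. They were lower in every SS library, and how many of them came from ribosomal protein mRNAs cannot be read from the tables.

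**Figure D4:**
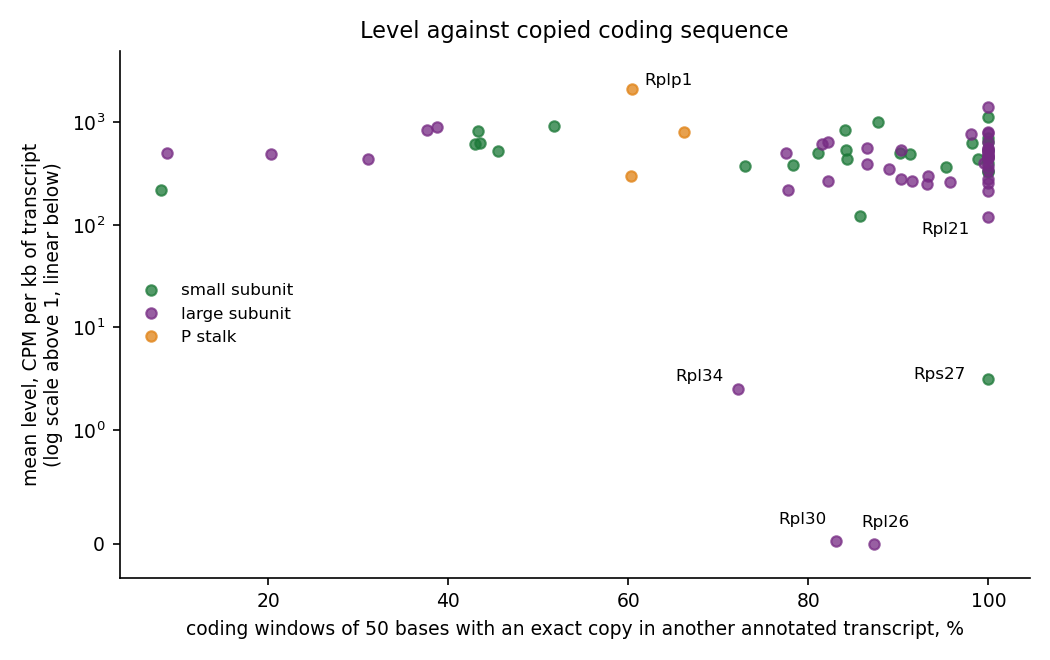
Mean level over the 6 libraries, in CPM per kb of transcript, against the percentage of 50-base coding windows with an exact copy in another annotated transcript, for 74 of the members other than the paralogs. Members with every window copied spread over much the same levels as those with few windows copied, while Rpl26, Rpl30, Rpl34 and Rps27 lie near 0.

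Another 4 core members were nearly absent from the tables. Rpl26, which sits at the exit of the nascent chain, had 0 counts in all 6 libraries, which allows up to 0.219 to 0.450 CPM by library for a count of 3. Rpl30 had 1 count, in AS replicate 3. Rpl34 had 6, 21 and 18 counts in SS replicates 1 to 3, against 17, 6 and 6 counts in AS replicates 1 to 3. Rps27, a zinc-finger protein of the small subunit, had 2, 4 and 13 counts in SS replicates 1 to 3, against 13, 17 and 8 counts in AS replicates 1 to 3. Its log2 fold change of -1.54 (SE 0.865, edgeR adjusted p = 0.484), the lowest of all members, rests on these few reads, and that of Rpl34 was 0.16 (SE 0.742, edgeR adjusted p = 0.946). For these 4 genes the tables hold no usable measurement, and a low count is not shown to be low expression.

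Each of the 4 has a near-identical copy that is listed in the same tables with 0 counts. Rpl26 and the processed pseudogene Gm15772 differ at 2 of 435 coding bases, and Rpl30 and Gm12191 at 1 of 345. Rpl34 and Rpl34-ps1 differ at 2 of 351, and Rps27 and the intron-less gene Rps27rt at 0 of 252. The coding bases around the first difference are shown for the first 3 pairs. Over whole transcripts, fewer windows of these genes were copied. At 50 bases 71.3% of the windows of Rpl26 had a copy in another annotated transcript, 47.8% of Rpl30 and 50.6% of Rpl34, against 98.6% of Rps27. The lines cover coding bases 147 to 206 of Rpl26, 66 to 125 of Rpl30 and 102 to 161 of Rpl34, counted from the A of the start codon, with the differing base in capitals. As substitutions from the gene to its copy the differences are C177T and T288C for Rpl26, G96A for Rpl30, and T132C and C318G for Rpl34. The genes lie on chromosomes 11 (Rpl26), 15 (Rpl30) and 3 (Rpl34), and the copies on chromosomes 5 (Gm15772), 11 (Gm12191) and 6 (Rpl34-ps1).
Rpl26: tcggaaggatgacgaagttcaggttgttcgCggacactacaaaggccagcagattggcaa
Gm15772: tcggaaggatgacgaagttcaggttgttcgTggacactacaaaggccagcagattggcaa
Rpl30: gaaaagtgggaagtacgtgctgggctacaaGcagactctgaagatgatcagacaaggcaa
Gm12191: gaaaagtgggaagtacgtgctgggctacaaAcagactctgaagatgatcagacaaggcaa
Rpl34: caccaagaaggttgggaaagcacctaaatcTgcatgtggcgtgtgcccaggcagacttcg
Rpl34-ps1: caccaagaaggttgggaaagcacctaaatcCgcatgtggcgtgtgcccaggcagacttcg

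A listed copy did not go with loss of the parent in every case. Of 190 pairs that shared at least 50% of coding windows, 13 had the copy as a row of the tables. Rpl37rt differs from Rpl37 at 1 of 291 coding bases and shares 82.2% of its windows. It had 1943 counts over the 6 libraries, while Rpl37 had 13443. The matching part of Wdr89 differs from Rplp2 at 2 of 345 coding bases, and Wdr89 had 39 counts, while Rplp2 had 20383. A listed copy as near-identical as those of the missing genes was thus also found for well-counted members. Rpl14-ps1 shares 77.7% of the windows of Rpl14 and had 4399 counts, while Rpl14 had 13400. A set of 7 pseudogene rows was taken by symbol, and Rpl37rt is not in it. Of these 7 rows, 3 could be tested, with 0 called and a median log2 fold change of -0.24, that of Rpl14-ps1 (SE 0.282, edgeR adjusted p = 0.739) having the lowest p. Adding these 7 rows to the members left the difference in share at 0.0465 percentage points. Reads dropped for several alignments are in no gene row, so this sum cannot show the effect of the copies. The part that the copies play in the counts of the 4 missing genes was not tested.

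The paralogs with tissue-bound expression were close to 0. Rpl10l, known from the testis, had 0 counts. Rpl39l, also a testis gene, had 4 counts, all in AS replicate 1. Rpl3l, the form of striated muscle, had 6 counts in SS replicate 2 and 1 in SS replicate 3. None of the 3 passed the filter on low counts, whereas the widely expressed Rps27l did.

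Ribosomal proteins whose symbols fall outside the rule gave the same picture. Of 6 tested, 0 were called and 6 had a lower fitted value in SS, with a median log2 fold change of -0.34. Fau, whose product is split into a ubiquitin-like protein and Rps30, had 419.6, 455 and 163 CPM in SS replicates 1 to 3, against 546, 403 and 365 CPM in AS replicates 1 to 3. SS replicate 3 was its lowest library, and the log2 fold change was -0.34 (SE 0.377, edgeR adjusted p = 0.727). Rps3a1 stood at -0.34 (SE 0.254), Rpl36al at -0.42 (SE 0.355), Rpl22l1 at -0.12 (SE 0.284) and Rpl7l1 at -0.29 (SE 0.227) as log2 fold changes. Rack1, a scaffold on the small subunit listed under its older symbol Gnb2l1, had a log2 fold change of -0.26 (SE 0.290, edgeR adjusted p = 0.733).

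None of the elongation factors, initiation factors or other TOP mRNAs tested was called. Elongation factors drive each step along the mRNA. Their list also held Eef2k, a kinase of Eef2, and Eef1e1, which are not elongation factors themselves. It had 0 of 8 called and a median log2 fold change of -0.27, all 8 lower in SS by fitted value. Eef1a1, which brings aminoacyl-tRNA to the ribosome and is itself a TOP mRNA, had 3697, 4703 and 3935 CPM in SS replicates 1 to 3, against 5698, 5253 and 5070.0 CPM in AS replicates 1 to 3. Unlike most members, it was not lowest in SS replicate 3, and all SS libraries lay below all AS libraries (log2 fold change -0.38, SE 0.256, edgeR adjusted p = 0.558). Eef2, which moves the ribosome by a codon, likewise did not overlap, with 928, 1084 and 1294 CPM in SS replicates 1 to 3, against 1514, 1361 and 1344 CPM in AS replicates 1 to 3 (log2 fold change -0.35, SE 0.258, edgeR adjusted p = 0.587). Among elongation factors the lowest p belonged to Eif5a, which helps the ribosome past stalling sequences (log2 fold change -0.45, SE 0.271, edgeR adjusted p = 0.506). Initiation factors had 0 of 32 called and a median of -0.18, with the lowest p at Eif3e, a subunit of eIF3 (log2 fold change -0.49, SE 0.242, edgeR adjusted p = 0.425). The list of other TOP mRNAs shares Eef1a1, Eef2, Eif3e and further genes with the factors above, and also holds Rack1. It had 0 of 20 called and a median of -0.25. Among these Tpt1, the translationally controlled tumour protein, had a log2 fold change of -0.35 (SE 0.318) and Nap1l1, a histone chaperone, one of 0.66 (SE 0.241, edgeR adjusted p = 0.288).

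Genes that build ribosomes had medians nearer to that of all genes. Their transcript lengths were not set against those of the members. Among other protein-coding genes the median log2 fold change was -0.35 for transcripts of up to 600 bases and 0.30 above 4000 bases. Ribosome biogenesis factors had 0 of 52 called and a median log2 fold change of -0.04, and the machinery of RNA polymerase I, which makes ribosomal RNA, had 0 of 15 called and a median of 0.16. The lowest p in these lists belonged to Tsr1, a factor in small subunit maturation (log2 fold change -0.48, SE 0.225, edgeR adjusted p = 0.413), and to Taf1a, a subunit of the polymerase I selectivity factor (log2 fold change 0.91, SE 0.423, edgeR adjusted p = 0.408). Regulators of mTORC1, MYC and TOP translation had 0 of 23 called and a median of 0.11, with the lowest p at Eif4ebp3, an inhibitor of cap-dependent initiation (log2 fold change -0.76, SE 0.269, edgeR adjusted p = 0.279). Mitochondrial ribosomal proteins had 0 of 77 called, 76 lower in SS by fitted value and a median of -0.41. Mrps10, of the mitochondrial small subunit, had 22.7, 27.6 and 24.2 CPM in SS replicates 1 to 3, against 43.3, 46.4 and 42.4 CPM in AS replicates 1 to 3, without overlap (log2 fold change -0.82, SE 0.233, edgeR adjusted p = 0.162).

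Of the p53 response genes, which include those that respond when free ribosomal proteins bind Mdm2, 1 of 11 was called. Their median log2 fold change was 0.11, against 0.08 for all genes tested. Cdkn1a, the cell cycle inhibitor p21, had 37.6, 42.9 and 51.2 CPM in SS replicates 1 to 3, against 13.9, 5.80 and 4.01 CPM in AS replicates 1 to 3. Every SS library lay above every AS library, and Cdkn1a rose, with a log2 fold change of 2.47 (SE 0.431, edgeR adjusted p = 0.0322). The call ended when any library other than AS replicate 1 was left out, with log2 fold changes of 2.14 to 2.57 and edgeR adjusted p of 0.0581 to 0.176, and the value stayed positive in all of these. Rps27l, which p53 also drives, was not higher in SS.

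**Figure D5:**
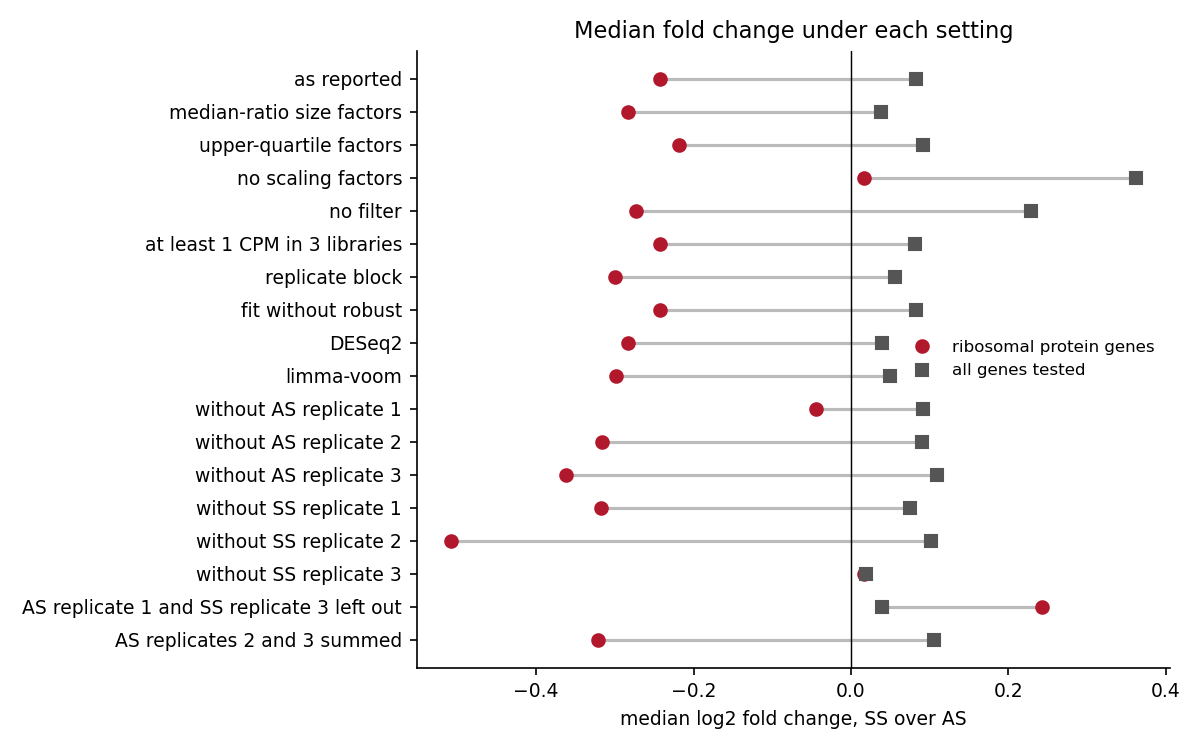
Median log2 fold change, SS over AS, of the tested ribosomal protein genes (circles) and of all genes tested (squares) in the reported comparison and under each alternative. The ribosomal protein median runs from -0.51 without SS replicate 2 to 0.24 with AS replicate 1 and SS replicate 3 left out, and lies to the left of that of all genes in every row except that last one.

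Summed mRNA levels of some marker lists differed between the groups and those of others overlapped, while cell shares themselves were not measured. Hepatocyte markers overlapped, at 100782 to 138806 summed CPM in SS and at 133110 to 195841 in AS, with 0 of 16 called. Alb alone gave 49637, 76278 and 53142 CPM in SS replicates 1 to 3, against 85540, 63496 and 61238 CPM in AS replicates 1 to 3. Erythroid markers had 11 of 23 called higher in SS (604 to 995 summed CPM in SS, against 238 to 281 in AS), cell cycle genes, which mark no single cell type, 13 of 27 (215 to 349, against 51.1 to 64.8) and neutrophil markers 3 of 8 (184 to 480.0, against 20.6 to 35.5). Most of the neutrophil sum was Lcn2, itself among those called, with 125, 362 and 221 CPM in SS replicates 1 to 3. In AS replicates 1 to 3 Lcn2 had 26.6, 14.2 and 16.4 CPM. Monocyte and macrophage markers had 6 of 15 called higher, although their sums overlapped (1371 to 2118 in SS, against 1451 to 1858 in AS). Cholangiocyte markers had 2 of 8 called higher (247 to 369, against 129 to 159) and stellate and fibroblast markers 2 of 12 (513 to 801, against 388 to 452). Kupffer cell markers had 0 of 12 called, lymphocyte markers 0 of 10 and endothelial markers 0 of 12. Each of these lists had detected genes, and none of their genes in the tables was at 0 in all libraries. What cells carrying these mRNAs contributed to the ribosomal protein counts was not tested.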

How the data were processed

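Raw counts per gene symbol were deposited by the authors as a separate table for each of the 6 libraries. The submitters' processing notes name HISAT2, HTSeq and the build mm10. Versions, annotation, read length and strand setting are not given in the sources used here. Records of overlapping or antisense genes and of near-identical copies can be dropped or split by such counting. The 5 counter lines of each table entered neither library sizes nor tests. They held, as averages over 3 libraries, 46.9% (no gene), 15.4% (several alignments), 5.05% (not aligned), 3.26% (low quality) and 0.384% (ambiguous) of records in SS, against 41.6%, 20.1%, 3.72%, 2.71% and 0.527% in AS.

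Genes were filtered with filterByExpr (minimum count 10, minimum total 15), and the SS and AS libraries were tested in R 4.3.3 with edgeR 4.0.16 (robust quasi-likelihood fit, TMM factors, two-sided F-tests), and p-values were adjusted after Benjamini and Hochberg across the 12622 genes. Standard errors (SE) were derived from the F statistics. DESeq2 1.42.0 and limma-voom (limma 3.58.1) were alternatives, with other scaling, filters, a replicate block and left-out libraries. Departures from a gene's mean used log2(CPM + 0.5). The procedure was tested on simulated counts with 200 changed genes over 5 runs, which gave 5.6 false calls on average.

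All 81 members matched GENCODE M21 on the same build, as did 23334 of the 24421 symbols. Levels per length used 1 representative transcript a gene; that of Rps20 (3706 bases) is long and lowers its value. Copies were sought among annotated transcripts, since no genome sequence was used, and over coding windows, a departure from the plan of whole transcripts; whole transcripts gave a median of 55.0% at 50 bases. Intervals and floors cover counting error only.

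The members, the lists and the alternatives were chosen with earlier results of these data known. The rule for named genes took the 6 highest and 6 lowest fold changes, the 5 highest and 5 lowest levels per length, the 3 stalk genes and Rpsa, the members that were filtered out, the paralogs and the 6 with the largest copied share. It also took every detected gene outside the symbol rule, and of the other lists up to 3 called members, or else that of lowest p. Called cell type markers other than Lcn2 are given as counts only. The members taken for copied share were Rpl17, Rps12, Rpl23a, Rpl31, Rpl15 and Rpl27a. Rps3, Rps10, Rpl11, Rpl14, Rpl37, Eef1a1, Eef2, Tpt1, Lcn2 and the genes whose sequences are shown were chosen after their values were seen. A few genes that these rules take are not reported here.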

Additional observations from a re-analysis of the deposited data

How the results depend on the processing

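The members called numbered 0 under every alternative but one: with AS replicate 1 and SS replicate 3 left out there were 4, all higher in SS, among 662 of 12716 genes called overall (5.21%). The count of all genes called, 122 as reported, was 217 with no filter, 453 with DESeq2, 31 with limma-voom, 31 with AS replicates 2 and 3 summed, and 22 to 99 with single libraries left out (26 without SS replicate 2; 22, 26 and 38 when the library dropped was AS replicate 1, 2 or 3). The replicate numbers are shared by the groups, and departures from the group mean correlated at 0.060, -0.156 and 0.237 between same-numbered libraries. The AS library most like SS replicates 1, 2 and 3 was AS replicate 1, 1 and 3. With 3 libraries a group, these correlations cannot show whether the numbers pair the libraries. With the replicate number as a block, 460 genes and 0 members were called, and the fitted values of Rps12 (-0.0224), Rpl21 (-0.188) and Rps19 (-0.0329) turned negative. The members' median log2 fold change ran from -0.51 to 0.016 with single libraries left out. The difference in share, 0.0462 percentage points, was 0.789 with AS replicate 1 and SS replicate 3 left out.

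Fitted log2 fold changes changed sign often. Rps10 turned positive under several settings and was called in 1 of them, with AS replicate 1 and SS replicate 3 left out. Rps12, Rpl41 and Rps4l, which turned negative under other settings, were called as positive with the same 2 libraries left out. The cause was not tested, other than for scaling. Positive values became negative with median-ratio factors for Rpl21 (-0.00444) and Rps19 (-0.00979), with DESeq2 for Rpl21 (-0.00391) and Rps19 (-0.00979), with limma-voom for Rps12 (-0.0239), Rpl21 (-0.201) and Rps19 (-0.0324), and with AS replicates 2 and 3 summed for Rpl34 (-0.0308), Rpl41 (-0.0779), Rpl21 (-0.0115) and Rps19 (-0.0332). Without scaling factors the median of all genes was 0.36, in place of 0.08, and with this common shift negative values became positive for Rplp1 (0.119), Rplp0 (0.199), Rplp2 (0.141), Rpsa (0.178), Rpl17 (0.0322), Rpl31 (0.0195), Rps3 (0.129), Rps10 (0.215), Rpl14 (0.177), Rpl22l1 (0.142), Rpl14-ps1 (0.0165) and Rpl7l1 (5.17e-05). With AS replicate 1 and SS replicate 3 left out they became positive for Rps26 (0.116), Rplp1 (0.396), Rps29 (0.230), Rplp0 (0.211), Rplp2 (0.391), Rpsa (0.438), Rpl17 (0.184), Rpl31 (0.128), Rpl27a (0.0805), Rps3 (0.214), Rps6 (0.0147), Rps10 (0.678, called), Rpl11 (0.106), Rpl14 (0.379), Rpl37 (0.0686), Tpt1 (0.0942), Fau (0.186), Rpl36al (0.0503), Rpl14-ps1 (0.0562) and Rpl22l1 (0.166).

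With single libraries left out, the log2 fold change ranged from -0.462 to 0.182 for Rplp1, -0.211 to 0.0875 for Rplp0, -0.374 to 0.194 for Rplp2, -0.364 to 0.234 for Rpsa, -0.348 to 0.196 for Rps3, -0.272 to 0.332 for Rps10, -0.390 to 0.198 for Rpl14, -0.234 to 0.587 for Rpl41, -0.300 to 0.431 for Rpl21, -0.277 to 0.281 for Rps19, -0.109 to 0.961 for Rps4l, -0.239 to 0.814 for Rpl34, -0.139 to 0.475 for Rps12, -0.544 to 0.0390 for Rpl17, -0.520 to 0.0184 for Rpl31 and -0.444 to 0.0482 for Rpl22l1. Leaving out SS replicate 3 turned those of the stalk genes, Rpsa, Rpl14 and Rps10 positive, and so did leaving out AS replicate 1. The call of Cdkn1a also ended with AS replicates 2 and 3 summed. Rpl26, Rpl30, Rpl10l, Rpl39l and Rpl3l had too few counts for a test, and the values of Rpl34 and Rps27 rest on few reads.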
